A study of Mus musculus with 135 samples.

Results

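The cells described here were single haematopoietic stem cells (HSCs) from 1 old mouse, divided by whether the transcript of *Aldh1a1* was detected in them. The series held 61 cells of a young and 74 cells of an old mouse, and 62 of the 74 had passed the quality limits that the study applied and were kept. A cell was placed with *Aldh1a1* where log2(CPM+1) of the gene was above 2 (CPM, read counts scaled to a common total in every cell) and without it where this value was at most 2. This gave 46 cells with and 16 cells without *Aldh1a1*. Both groups were therefore chosen by the level of *Aldh1a1*, and the values of this gene are given only as a description.

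The study sequenced single HSCs of young (2 to 3 months) and old (20 to 25 months) C57BL/6 mice to ask how stem cells change with age. All mice carried a *Vwf-EGFP* bacterial artificial chromosome transgene, a reporter for the von Willebrand factor gene. Cells were sorted from bone marrow as Lin-Sca-1+c-Kit+CD150+CD48-, captured on Fluidigm C1 chips, amplified from polyadenylated RNA over the full transcript and sequenced as 51 bp reads. Each age was represented by 1 mouse, and cells of 1 mouse are not replicates of it. Each group of cells was therefore taken as 1 sample: no test was made, no p-value is given, and standard deviations (SD) describe the spread over cells only. Intervals for shares are 95% exact Clopper-Pearson intervals, those for summed reads 95% exact Poisson intervals, and both cover counting error only.

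*Aldh1a1* encodes a cytosolic aldehyde dehydrogenase. The enzyme oxidizes retinaldehyde to retinoic acid and also removes reactive aldehydes that arise from lipid peroxidation. High aldehyde dehydrogenase activity, read with a fluorescent substrate, is widely used to enrich blood stem and progenitor cells. In the mouse the gene lies beside a closely related copy, *Aldh1a7*, whose product has little activity on retinaldehyde.

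In the GRCm38 annotation *Aldh1a1* spans chr19:20492583-20643463 on the forward strand and *Aldh1a7* chr19:20692953-20727556 on the reverse strand, 49 kb away. RefSeq gives *Aldh1a1* 2 start sites. The 250 bases before the second start and the 250 bases before the start of *Aldh1a7* are printed because the 2 genes were detected together in these cells (GRCm38.p6, RefSeq, 5′ to 3′ on the strand of each gene). Capitals mark runs of at least 12 bases that both hold in the same order.
Aldh1a1, chr19:20601718-20601967, forward strand: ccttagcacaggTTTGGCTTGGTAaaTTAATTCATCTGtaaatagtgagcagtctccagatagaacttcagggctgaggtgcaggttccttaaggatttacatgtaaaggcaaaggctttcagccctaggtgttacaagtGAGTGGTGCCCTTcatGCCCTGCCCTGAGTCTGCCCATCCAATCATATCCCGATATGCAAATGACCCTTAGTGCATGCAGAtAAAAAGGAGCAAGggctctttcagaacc
Aldh1a7, chr19:20727557-20727806, reverse strand: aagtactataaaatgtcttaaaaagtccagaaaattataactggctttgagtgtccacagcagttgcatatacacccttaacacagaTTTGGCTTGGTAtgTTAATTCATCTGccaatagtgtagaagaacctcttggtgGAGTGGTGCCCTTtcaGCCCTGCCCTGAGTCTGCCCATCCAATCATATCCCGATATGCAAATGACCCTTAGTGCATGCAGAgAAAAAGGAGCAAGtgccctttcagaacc

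The 2 stretches shared 5 such runs, together 115 bases, and the longest was 65 bases. Over the 110 bases nearest to the start, 104 were identical (94.5%), against 17.9% of the bases before them when set side by side without gaps. The stretch before the first start of *Aldh1a1*, at chr19:20492333-20492582, shared no run of this length with that of *Aldh1a7*. The octamer ATGCAAAT, searched on both strands, was present once in each printed stretch, within the 65 shared bases, and in 1.60% of the 32851 RefSeq promoters cut to the same length. The CCAAT box was present once in the *Aldh1a1* stretch, 2 times in that of *Aldh1a7* and in 33.8% of all promoters. These are matches of letters and not shown binding sites.

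The coding sequences of the 2 genes were also close, which bears on how short reads can be assigned. Both were 1506 bases long in the GENCODE M21 transcripts and identical at 1380 positions (91.6%), with a longest identical run of 100 bases. Of the 2003 windows of 51 bases in the *Aldh1a1* transcript, the length of the reads, 7.29% also occurred unchanged in *Aldh1a7* and 30.2% occurred there with at most 2 differences. The first 51 coding bases, in exon 1, are shown as windows that tell the genes apart, with the differing bases in capitals.
Aldh1a1, chr19:20602012-20602062, forward strand: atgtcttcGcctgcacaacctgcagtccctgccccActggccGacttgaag
Aldh1a7, chr19:20727462-20727512, reverse strand: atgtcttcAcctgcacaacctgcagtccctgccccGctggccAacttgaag

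Coding bases 121 to 171 are shown as a window that cannot tell them apart. This sequence lies in exon 2 of both genes, at chr19:20610967-20611017 (*Aldh1a1*) and chr19:20726958-20727008 (*Aldh1a7*).
Both genes: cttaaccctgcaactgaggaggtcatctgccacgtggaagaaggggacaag

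*Aldh1a1* itself varied widely. In the 46 cells placed with it, log2(CPM+1) was 2.51 at the lowest, 7.78 at the median and 11.57 at the highest, from 2 to 9655 reads per cell. In the 16 cells placed without it, the values ran from 0 to 1.78 with a median of 0.93. Only 2 of these 16 cells held no read of the gene, and the other 14 held 1 to 5 reads. The cells nearest to the limit were A11 (2.51) and A6 (2.72, from 2 reads) just above it, and H6 (1.78) and A1 (1.68) just below it. The cells without *Aldh1a1* thus mostly held a few reads of it. Whether these reads came from transcripts of the cell itself was not tested. Of the 52 young cells that passed the quality limits, 15 held a read of the gene and 10 were above the limit.

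**Figure D1:**
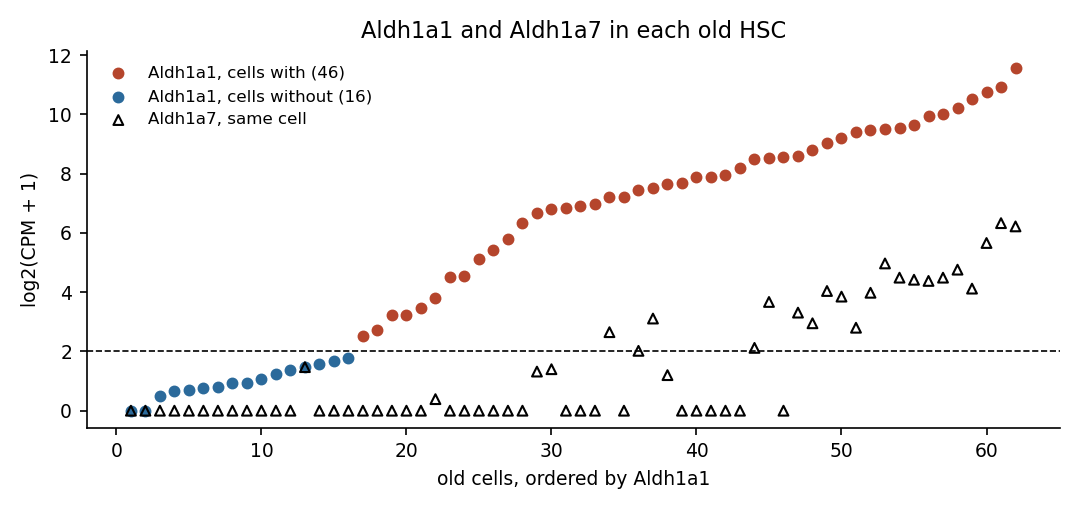
Level of *Aldh1a1* (filled circles) and *Aldh1a7* (open triangles) in each of the 62 old HSCs, as log2(CPM+1), with cells ordered by *Aldh1a1* and a dashed line at the limit of 2. *Aldh1a7* was above the limit in 21 cells, all of them with *Aldh1a1*, and mostly in those on the right, where *Aldh1a1* was highest.

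*Aldh1a7* followed *Aldh1a1* more closely than any other gene compared. It was above 2 in 21 of the 46 cells with *Aldh1a1* (45.7%, interval 30.9 to 61%) and in 0 of the 16 cells without, which allows a share of up to 18.8% (3 cells of 16) or, by the exact interval, 20.6%. Summed over cells, 856 reads (interval 800 to 915) were counted on it in the cells with *Aldh1a1* and 1 read in the cells without. Its mean log2(CPM+1) was 1.93 ± 2.12 (SD over 46 cells) against 0.09 ± 0.37 (16 cells). Over the 46 cells, the Spearman correlation of *Aldh1a7* with *Aldh1a1* was 0.82, the highest among the 9069 genes. All these values share the total count of each cell, and reads of *Aldh1a1* that were assigned to its copy would give the same relation. Reads on *Aldh1a7* came to 2.06% of those on *Aldh1a1* in the cells with it, and to between 0.658% and 4.18% in the 25 cells that held any. Of the 20 cells with at least 500 reads on *Aldh1a1*, 4 held none on *Aldh1a7*. Whether reads moved between the copies was not tested.

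The label of the cells was held up against HSC markers. *Kit*, the stem cell factor receptor, was above 2 in 46 of 46 cells with and 15 of 16 cells without *Aldh1a1*. *Ly6a*, which encodes Sca-1, was above 2 in 31 and 12 cells, *Mecom* in 29 and 11 and *Hlf* in 41 and 14. The transcripts of 3 further markers were sparse, *Slamf1* (CD150, used in the sort) in 12 and 3 cells, *Procr* in 19 and 5 and *Fgd5* in 10 and 4. *Cd48* had no read in any of the 62 cells. All cells of both groups held at least 2 of the 8 HSC markers above the limit.

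Markers of other cells were also counted in both groups. Of the B cell markers, *Cd79b* was above 2 in 14 of 46 cells with and 2 of 16 without *Aldh1a1*, and *Vpreb1* in none. At least 1 of the 5 T and NK cell markers counted was above 2 in 27 of 46 and 4 of 16 cells, with summed levels of 0 to 1360 CPM (median 7.55) and 0 to 429 CPM (median 2.05), and *Cd4* had no read. Of the 8 dendritic cell and macrophage markers, at least 1 was above 2 in 11 and 2 cells, with summed levels up to 286 and 110 CPM, and *C1qa* and *C1qc* had no read. Neutrophil markers were met in 3 and 1 cells, erythroid markers in 3 and 0 cells, and platelet markers in 25 and 6 cells, where *Pf4* and *Ppbp* were above 2 in no cell without *Aldh1a1*. At least 1 of the 6 endothelial and stromal markers counted was above 2 in all 46 and all 16 cells, with summed levels of 19.4 to 1190 CPM (median 69.5) and 17.6 to 1980 CPM (median 57.1). This was *Lepr*, the leptin receptor, in all 62 cells, while *Pecam1* was above 2 in 11 and 3 cells, *Emcn* in 6 and 1 and *Kdr* in 2 and 0, and *Cxcl12* and *Col1a1* had no read. B cell, T and NK cell, dendritic cell and macrophage, erythroid and platelet markers were thus met in a larger share of the cells with *Aldh1a1*. These cells also held more genes above 2 (median 4039 against 3634), and 62.3% of all genes compared had a higher mean in them. For the erythroid markers, 0 of 16 cells allows a share of up to 20.6% by the exact interval. The counts are thus not read as a result about these markers. The part of these markers in the differences given next was not tested.

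The 2 groups were sequenced to a like depth but differed in how many genes were seen. The total count per cell was 276316 to 3978346 (median 2158728.5) with *Aldh1a1* and 409344 to 4086659 (median 1862101) without. The cells with *Aldh1a1* held 2964 to 6267 genes above 2 (median 4039) and those without 2967 to 4731 (median 3634). After each cell was thinned to 250000 counts the medians were 4285.5 and 3942.5. The 50 highest genes took a median of 19.7% and 20.5% of counts. At least 1 of 4 Y-linked genes was above 2 in 44 of 46 and 14 of 16 cells. *Xist* was above 2 in 7 of 46 and 1 of 16 cells, each of which also had a Y-linked gene above 2. The source of these *Xist* reads was not tested.

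The question was which other genes differed between old HSCs with and without *Aldh1a1*. Among the 9069 genes above 2 in at least 10% of the 62 cells, 156 genes (1.72%) had a mean log2(CPM+1) at least 2 higher in the cells with *Aldh1a1*, and 42 genes (0.463%) had a mean at least 2 lower, a difference that corresponds to a factor of 4 on this scale. A difference of 3 or more was met by 10 genes higher and 7 lower. These are limits of size and not tests. The median difference over all genes compared was 0.20 and 62.3% of them lay above 0, so the scale as a whole leaned towards the cells with *Aldh1a1*, which also held more genes. Of the 198 genes past the limit, 78.8% were higher with *Aldh1a1*. This share was 56.7% with TMMwsp factors (97 higher, 74 lower), 62.8% with poscounts factors (108 and 64) and 55.9% when the median difference was taken off (90 and 71). Among cells within the range of genes detected that both groups covered (37 with and 16 without), 117 genes were higher and 72 lower, and 104 and 41 of these were among the 156 and 42. The genes higher with *Aldh1a1* had a median Spearman correlation of 0.23 with the number of genes detected over the 62 cells, against 0.08 for those lower and 0.14 for all genes compared.

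**Figure D2:**
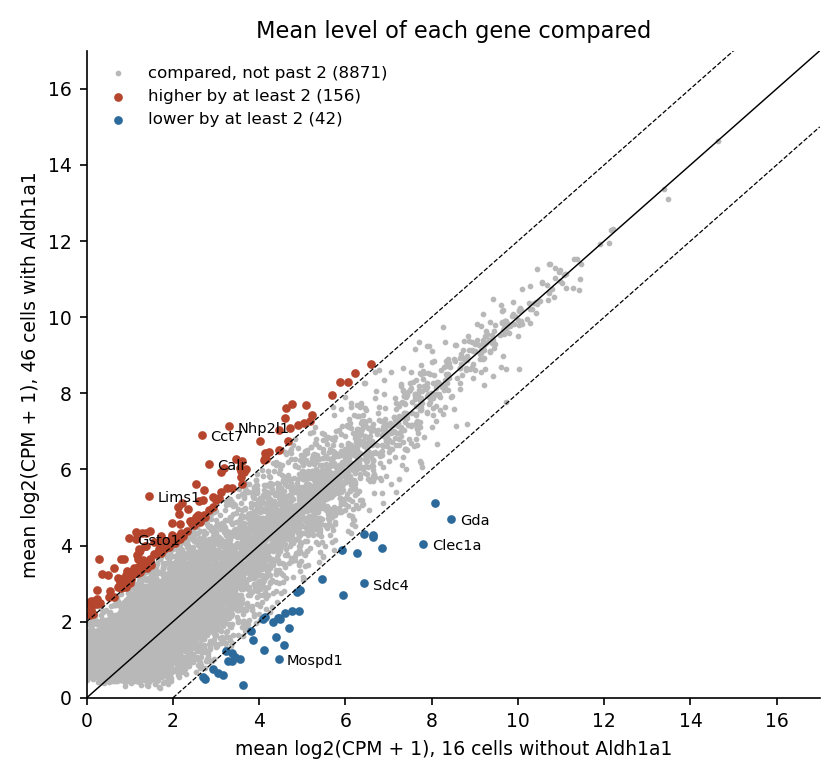
Mean log2(CPM+1) of each of the 9069 genes compared in the 46 old HSCs with *Aldh1a1* (vertical axis) and the 16 without (horizontal axis), with the diagonal as a solid line and differences of 2 as dashed lines. The 156 genes above the upper dashed line and the 42 below the lower one are coloured, and the former include more genes of low level without *Aldh1a1*.

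The 15 largest differences towards the cells with *Aldh1a1* included genes of RNA and protein handling. This grouping was made after the values were seen, and the share of such genes among all genes compared was not counted. The largest was that of *Cct7*, a subunit of the CCT chaperonin that folds actin and tubulin. It ranged from 0 to 10.90 (median 7.76) in the cells with and from 0 to 8.83 (median 2.24) in the cells without *Aldh1a1*, and was above 2 in 39 of 46 (84.8%, interval 71.1 to 93.7%) and 9 of 16 cells (56.2%, interval 29.9 to 80.2%). The means were 6.90 ± 3.34 and 2.68 ± 2.41, a difference of 4.21. The ranges overlapped, as they did for each of the 30 genes with the largest differences.

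*Lims1* encodes PINCH1, an adaptor that joins integrin-linked kinase at adhesion sites. It was above 2 in 28 of 46 cells with and 4 of 16 without *Aldh1a1*, with medians of 5.83 and 0.89 and a difference of means of 3.87. Within the cells with *Aldh1a1* it was split between cells near 0 and cells at high level, as the plot of single cells shows. *Nhp2l1*, a protein of the U4 small nuclear ribonucleoprotein (snRNP), was above 2 in 43 of 46 and 6 of 16 cells (difference 3.83). *Phax*, which exports small nuclear RNAs, was above 2 in 23 and 1 cells (difference 3.35), and *Snrpa1*, a protein of the U2 snRNP, in 24 and 1 cells (difference 2.90). All 3 serve the making of spliceosomal RNA-protein particles, a grouping made after their values were seen.

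The calcium-binding proteins *Calr* and *Calu* of the secretory pathway were also among the 15. *Calr*, the lectin chaperone calreticulin, had medians of 7.12 and 2.10 and was above 2 in 38 of 46 and 8 of 16 cells (difference 3.32). *Calu*, calumenin, was above 2 in 24 and 2 cells (difference 3.04). Others of the 15 were *Atp11b*, a phospholipid flippase (3.21), *Gsto1*, an omega-class glutathione transferase (3.20), *Eif4e*, the protein that binds the mRNA cap (3.07), *Rad50* of the double-strand break repair complex (3.04), *Btg2*, an antiproliferative early response gene (2.99), *Snx1*, a sorting nexin of the retromer (2.96), and *Cct3*, a further chaperonin subunit (2.90).

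**Figure D3:**
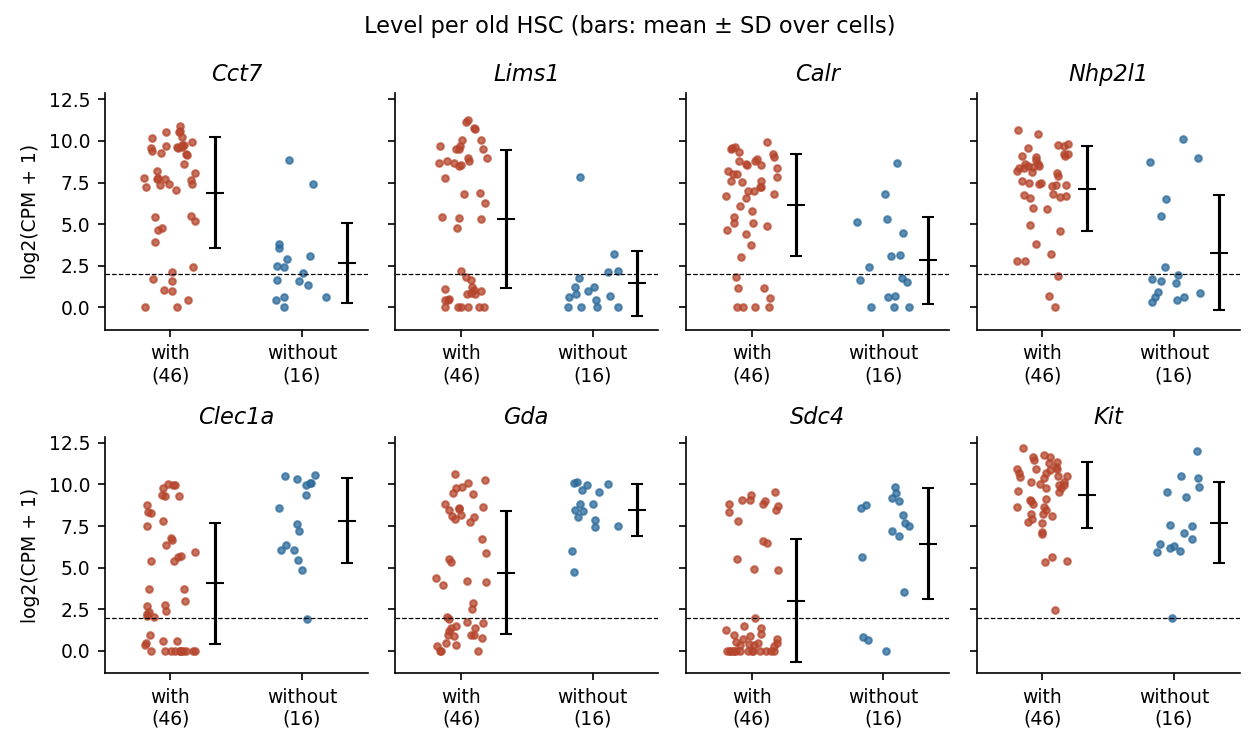
Level of 8 genes in each old HSC, as log2(CPM+1), for the 46 cells with and the 16 cells without *Aldh1a1*, with the mean and SD over cells as bars and a dashed line at 2. *Cct7*, *Lims1*, *Calr*, *Nhp2l1* and *Kit* had higher means with *Aldh1a1*, *Clec1a*, *Gda* and *Sdc4* higher means without it, and the groups overlapped for all 8.

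Among the genes lower with *Aldh1a1*, 2 were found in nearly all cells without it. *Clec1a*, a C-type lectin receptor, was above 2 in 15 of 16 cells without *Aldh1a1* (93.8%, interval 69.8 to 99.8%) and 30 of 46 with it (65.2%, interval 49.8 to 78.6%). Its levels ran from 1.89 to 10.55 (median 8.10) and from 0 to 10.03 (median 2.86), and the means were 7.81 ± 2.55 and 4.05 ± 3.65, a difference of -3.76. *Gda*, guanine deaminase, was above 2 in 16 of 16 and 28 of 46 cells. It ranged from 4.72 to 10.12 (median 8.66) without and from 0 to 10.63 (median 4.15) with *Aldh1a1*, a difference of means of -3.75. Summed reads on *Gda* were 17245 in the 16 cells and 18298 in the 46. No cell without *Aldh1a1* was as low in *Gda* as the lower part of the cells with it, while the upper ends met.

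*Gda* lies on the same chromosome as *Aldh1a1*, at chr19:21391307-21472661, 748 kb away. Of the genes counted within 1 Mb of *Aldh1a1*, *Anxa1* (difference -0.88), *Zfand5* (-0.58) and *1110059E24Rik* (-0.12) were compared and lay within the limit of 2. *Tmc1*, the next gene beyond *Aldh1a7*, was above 2 in 3 cells and was not compared. Of the compared neighbours, only *Aldh1a7* was higher in the cells with *Aldh1a1*.

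The remaining lower genes were more often absent from both groups. *Sdc4*, the heparan sulphate proteoglycan syndecan-4, was above 2 in 13 of 16 cells without and 16 of 46 with *Aldh1a1*, with medians of 7.62 and 0.79 (difference -3.43). *Mospd1* (8 of 16 and 7 of 46 cells, difference -3.43) and the matrix protein gene *Tinagl1* (7 and 3 cells, -3.27) were off in most cells with *Aldh1a1*. *Plk2*, a polo-like kinase, was above 2 in 12 and 19 cells (-3.25), yet within the 46 cells with *Aldh1a1* it was higher where *Aldh1a1* was higher (rho 0.46). The others were *Emb* (-3.18), *Gtf2a1*, a subunit of the general factor TFIIA (-2.96), *Rtp4* (-2.92) and *Parp14* (-2.87), both known as interferon-induced, *Gpr183*, an oxysterol receptor (-2.84), *Gprasp1* (-2.81), *Atp6v1a* of the vacuolar proton pump (-2.66), *Ttc8* of the BBSome (-2.58) and *Efna1*, an ephrin ligand (-2.55).

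Families of some leading genes were looked at after their values had been seen. Counts that include *Cct7*, *Cct3*, *Calr* and *Calu* are therefore not independent of this choice. Of the 8 CCT chaperonin subunits, all compared, 3 were higher by at least 2 (37.5%, beside 1.72% of all genes), *Cct7*, *Cct3* (2.90) and *Tcp1* (2.16). *Cct4* (-0.12) and *Cct5* (-0.37) were below 0. The median was 0.47, against -0.25 in the young cells and 2.42 in the 12 old cells that failed quality limits. The differences of the subunits of this 1 complex thus ran from -0.37 to 4.21. Their SDs over cells were 2.41 to 4.01, and the inequality between subunits was not tested. All 13 compared chaperones of the endoplasmic reticulum had a difference above 0, beside 62.3% of all genes. Their median was 0.97 (0.53 in the young cells and -0.11 in the 12 old cells that failed quality limits). *Calr*, *Calu* and *Pdia3* (2.21), a disulphide isomerase, passed 2 (23.1%, beside 1.72% of all genes). *Pdia4* (0.01) and *Hyou1* (0.08) fall below 0 once the median of 0.20 over all genes is taken off. The median was 0.51 over 76 genes of the mitochondrial ribosome, 0.68 over 36 NADH dehydrogenase genes, 0.51 over 39 proteasome genes and 0.05 over 79 genes of the cytoplasmic ribosome, beside 0.20 over all genes compared. In the young cells these medians were -0.1, -0.2, 0.11 and -0.0, beside 0.04 over all genes. In the 12 old cells that failed quality limits they were 0.35, 0.33, 0.64 and 0.31, beside 0.06. Members higher by at least 2 made up 2.63%, 2.78%, 2.56% and 0% of these families, near the 1.72% of all genes, and 0 were lower by as much.

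The lists of other aldehyde and retinoid genes were short, and 0 of their compared members passed 2. Of all genes compared, 1.72% were higher and 0.463% lower by at least 2. A count of 0 in a short list is thus no result about its members. Of 20 aldehyde dehydrogenase genes listed, 15 were in the count table and 9 besides *Aldh1a1* were compared. Of these 9, 0 passed 2 in either direction, and the median difference was 0.14 (-0.06 when the median over all genes was taken off). *Aldh2*, the mitochondrial enzyme that removes acetaldehyde, was above 2 in 17 of 46 cells with and 5 of 16 without *Aldh1a1*, with means of 2.09 ± 2.44 and 1.90 ± 2.83. *Aldh9a1* had a difference of 0.42, *Aldh7a1* of -0.52 and *Aldh16a1* of -0.67. *Aldh1a7*, described above, had one of 1.84, short of the limit.

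Of the 11 retinoid genes compared, 0 passed 2 (beside 1.72% of all genes) and the median was 0.21 (0.20 over all genes). *Dhrs3*, which reduces retinaldehyde back to retinol, was above 2 in 38 of 46 and 11 of 16 cells, with means of 5.59 ± 3.63 and 4.43 ± 3.58 (difference 1.16). *Rdh11*, a retinol dehydrogenase, had a difference of 1.05. *Cyp26b1*, an enzyme that degrades retinoic acid, had one of -0.12, and the receptor genes *Rara*, *Rarb* and *Rarg* had differences of -0.26, 0.24 and 0.10.

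Of the 35 glutathione and antioxidant genes compared, *Gsto1* alone passed 2 (2.86%, beside 1.72% of all genes). The median was 0.24, beside 0.20 over all genes. *Gsto1* was above 2 in 24 of 46 and 4 of 16 cells. *Gstt1* (1.78), *Txn1*, thioredoxin (1.78), and *Prdx3*, the mitochondrial peroxiredoxin (1.77), came next, and the pi-class transferase *Gstp1* lay at -1.33. *Gstm1*, a mu-class transferase, was alike in both groups, with medians of 8.73 and 8.73 and a difference of 0.10. Of the 9 compared genes for the repair and removal of aldehyde damage, 8 lay above 0 (88.9%, beside 62.3% of all genes) and 0 passed 2, beside 1.72% of all. *Adh5*, the formaldehyde-clearing dehydrogenase, had a difference of 0.96.

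**Figure D4:**
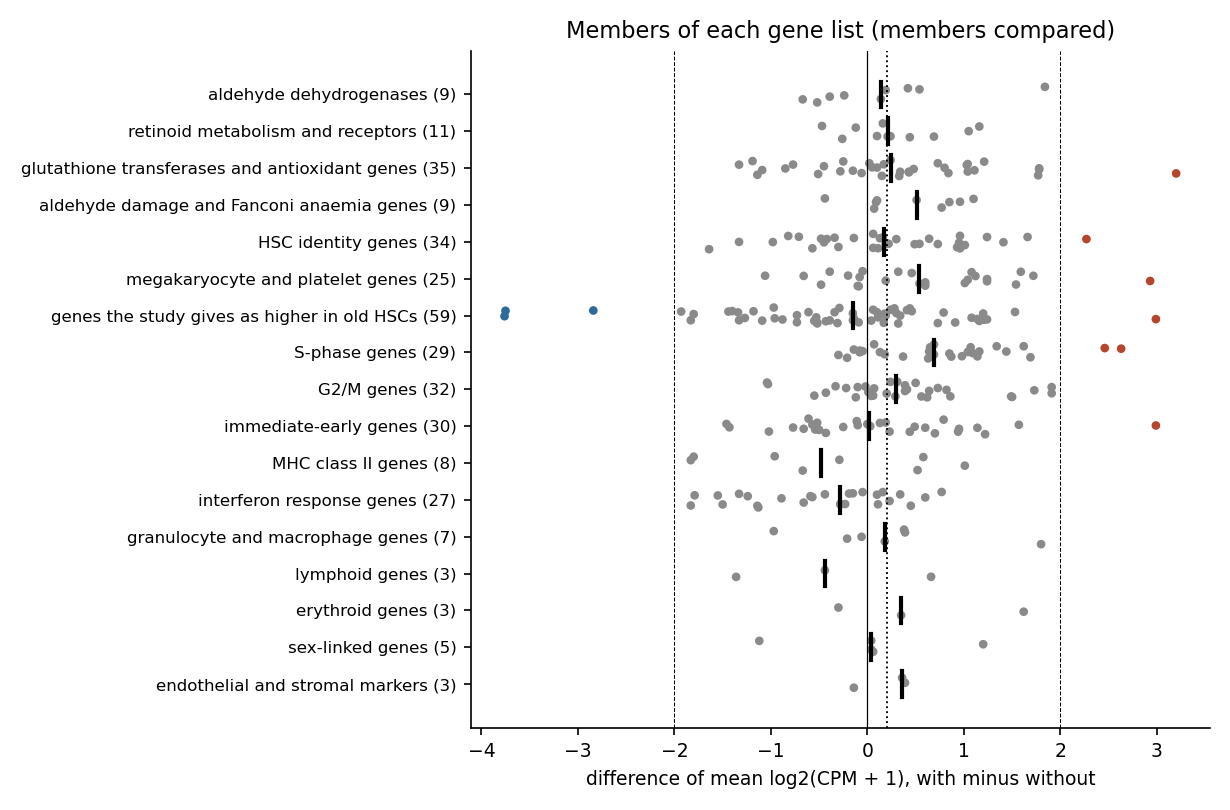
Difference of mean log2(CPM+1), cells with minus cells without *Aldh1a1*, for each compared member of the lists with at least 3 compared members, whose number is in brackets. Black bars mark list medians, the dotted line the median of 0.20 over all genes compared and the dashed lines differences of 2. Medians lay between -0.48 (MHC class II) and 0.69 (S phase).

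Genes of HSC identity lay on both sides. Of 34 compared, 1 passed 2 (2.94%, beside 1.72% of all genes). The gene past 2 was *Gfi1b*, a transcriptional repressor of the erythroid and megakaryocytic lineages (19 of 46 and 2 of 16 cells, difference 2.27). The median of the list was 0.17 (-0.03 with the median over all genes taken off). *Kit* ranged from 2.48 to 12.20 (median 9.88) with and from 1.96 to 11.99 (median 7.29) without *Aldh1a1*, a difference of means of 1.66. *Bmi1*, a Polycomb gene, lay at -1.64, *Runx1* at 1.41 and *Procr* at 0.73.

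Megakaryocyte and platelet genes had a median of 0.54 over 25 compared, beside 0.20 over all genes, with 1 member past 2 (4%, beside 1.72%). Of the 25, 64% lay above 0, beside 62.3% of all genes. The list's median was 0.59 in the young cells and 0.97 in the 12 old cells that failed quality limits. Over all genes these were 0.04 and 0.06. *Vcl* (1.72), *Pf4*, platelet factor 4 (1.59), and *Itga2b*, the integrin CD41 (1.54), were higher with *Aldh1a1*, though short of the limit. *Vwf*, whose reporter the mice carried, was above 2 in 26 of 46 and 11 of 16 cells, with a difference of -1.06 that turned to 1.61 in cells at or above the median number of genes detected (27 with and 4 without *Aldh1a1*) and was -2.59 in those below it. *Selp* was above 2 in 30 and 12 cells (difference -0.09). Of the 7 granulocyte and macrophage genes compared, 0 passed 2 (beside 1.72% of all genes), and *Lyz2* stood at 1.80 and *Prtn3* at -0.97.

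A list of genes given by the study as higher in old HSCs was chosen on these same cells, so its count is not independent of them. Over its 59 members, all compared, the median difference was -0.15, with 26 above (44.1%, beside 62.3% of all genes) and 33 below 0. In the 12 old cells that failed quality limits the median was 1.75. *Btg2* passed 2 (1.69%, beside 1.72% of all genes), and *Clec1a*, *Gda* and *Gpr183* passed -2 (5.08%, beside 0.463%). *Btg2* was above 2 in 35 of 46 and 11 of 16 cells, but in cells at or above the median number of genes detected its difference was -0.54. *Sat1*, which acetylates polyamines, had the next lowest value, -1.93.

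Transcripts of the 4 mitotic regulators that the study names were met in a smaller share of the cells with *Aldh1a1*. Any of the genes *Cdk1*, *Cdc25c*, *Ccna2* and *Ccnb1* was above 2 in 8 of 46 cells with (17.4%, interval 7.82 to 31.4%) and 5 of 16 without (31.2%, interval 11 to 58.7%), and these intervals overlapped. S-phase genes nevertheless had the highest median of the lists with at least 3 compared members, 0.69 over 29 genes, with 23 above 0 (79.3%, beside 62.3% of all genes). *Mcm6*, a subunit of the replicative helicase (2.63), and *Cdca7* (2.46) passed 2 (6.9%, beside 1.72%). This list also had a median correlation of 0.25 with genes detected, against 0.14 for all genes compared, and its median was -0.20 in cells below the median number of genes detected and 1.30 in those at or above it. The 32 G2/M genes had a median of 0.30 and 0 past 2, beside 1.72% of all genes.

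Immediate-early genes had a median of 0.01 over 30, below the 0.20 over all genes. *Egr1* was above 2 in every one of the 62 cells, with medians of 11.67 and 11.58, and *Egr3* in 21 of 46 and 5 of 16. *Jun* (-1.46) and *Klf6* (-1.43) lay on the lower side and *Dusp6* (1.57) on the higher. MHC class II genes had a median of -0.48 over 8, with 0 past 2, beside 1.72% higher and 0.463% lower of all genes. *Cd74*, the invariant chain, was above 2 in 26 of 46 and 11 of 16 cells (-1.83) and *H2-Aa* in 26 and 12 cells (-1.80), while *H2-DMa* lay at 1.01. In the young cells the list's median was -0.7, in all 74 old cells 0.01, and in the 12 old cells that failed quality limits 0.77.

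Interferon response genes lay on the lower side, with 19 of 27 below 0 (70.4%, beside 37.7% of all genes) and a median of -0.28. Of the 27, 0 passed 2 in either direction, beside 1.72% higher and 0.463% lower of all genes. *Usp18* (-1.83), *Stat2* (-1.79) and *Ifit1* (-1.55) were the lowest. *Ifitm1* was above 2 in all 62 cells, with means of 8.70 ± 1.89 and 9.60 ± 0.73. The median was -0.05 with a limit of 5 for *Aldh1a1*, -0.07 in cells at or above the median number of genes detected and -0.53 in those below it. In the young cells it was -0.14, and in the 12 old cells that failed quality limits 0.68. The 3 lymphoid genes compared had a median of -0.44, the 3 erythroid genes one of 0.35 and the 5 sex-linked genes one of 0.04, and none of these 11 genes passed 2.

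The same split was then made in cells that had not been used. In the young mouse it gave 10 cells with and 42 without *Aldh1a1*. *Xist* was above 2 in 50 of the 52 young cells and a Y-linked gene in 2, against 8 and 58 of the 62 old cells. Of the 156 genes higher in old cells with *Aldh1a1*, 89 (57.1%) had a difference above 0 in the young cells, beside 51.8% of all genes compared, and 14 (8.97%) had one of at least 2, beside 2.33% of all. Of the 42 lower genes, 20 (47.6%) were below 0 in the young cells, beside 48% of all, and 0 passed -2. Of the 15 largest, 1 passed 2 in the young cells.

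The 12 old cells that failed the quality limits gave 7 with and 5 without *Aldh1a1*. One of the 7, B9, had a total of 4610 counts and was placed by 1 read. Of the 156 higher genes, 96 (61.5%) were above 0 there, beside 52.5% of all genes, and 37 (23.7%) passed 2, beside 10.7% of all. Without B9 these were 91 (58.3% beside 53.8%) and 33 (21.2% beside 12.1%). Of the 42 lower genes, 13 (31%) were below 0, beside 43.7% of all. *Gda* was higher with *Aldh1a1* in these cells (3.53), as was *Clec1a* (1.75). *Cct7* was higher there (4.24) but not in the young cells (-0.64).

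**Figure D5:**
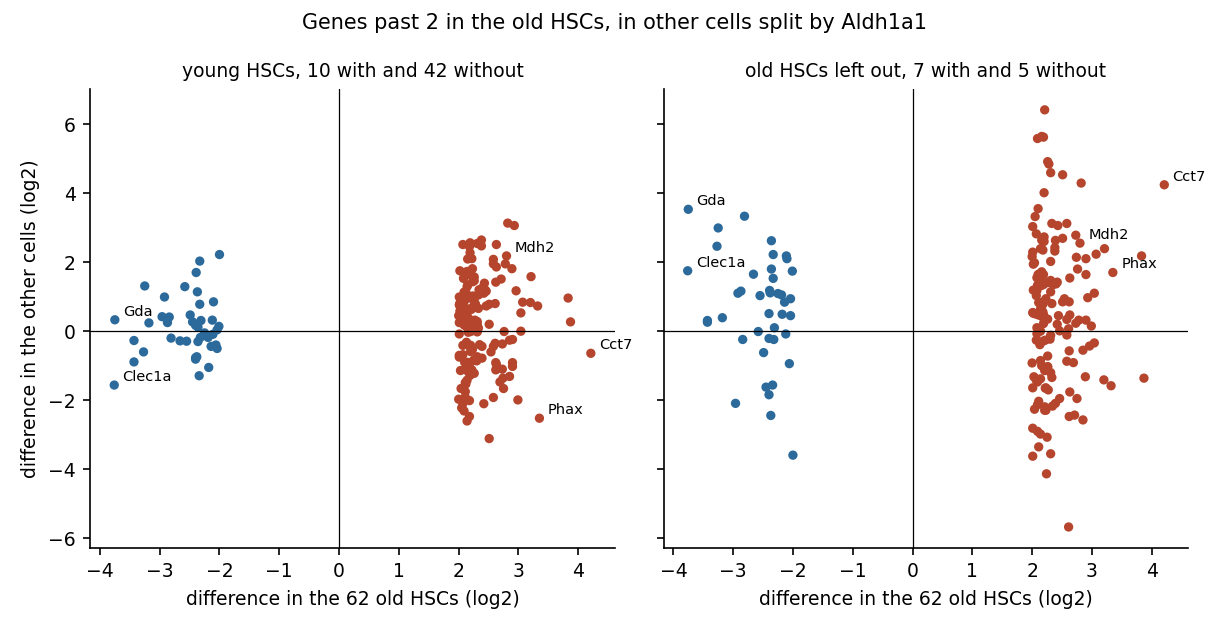
Differences of the 198 genes past the limit, cells with minus cells without *Aldh1a1*, in the 62 old HSCs (horizontal axis) and in young HSCs or in the 12 old HSCs left out (vertical axes, log2 scale). Red points are genes higher and blue points genes lower with *Aldh1a1* in the 62 cells, and points of both colours lie on both sides of 0 in each panel.

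The sides were then counted over both other sets. Of the 156 higher genes, 51 (32.7%) were above 0 in both other sets of cells, beside 26.5% of all genes compared, and of the 42 lower genes 4 (9.52%) were below 0 in both, beside 20.3%. The young and old differences rest on separate cells. *Spcs3* of the signal peptidase, with differences of 2.82, 3.13 and 4.29 in the 62 old, the young and the left-out old cells, was past 2 in all, as were *Mrps35* (2.38, 2.47 and 2.32), *Ppic*, a cyclophilin (2.31, 2.54 and 2.02), and *Zfp266* (2.38, 2.64 and 2.42). Without B9 these 4 stayed past 2 in the left-out cells, while *Mdh2*, mitochondrial malate dehydrogenase (2.80, 2.18 and 2.55), fell to 1.89 there. These 5 were singled out after their values were seen. Of all genes compared, 2.33% passed 2 in the young cells and 10.7% in the left-out cells. The share of all genes past 2 in both was not counted, but it can be at most the 2.33% of the young cells. No test of 5 of 156 against it was made.

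Within the 46 cells with *Aldh1a1*, its level was followed by few genes beside *Aldh1a7*. Among the next highest Spearman correlations were those of *2500004C02Rik* (0.54), *Fam175b* (0.53) and *Isg20l2* (0.53), and among the lowest those of *Slc23a2*, a vitamin C transporter (-0.51), *Afg3l1* (-0.49), *Ctr9* (-0.49) and *Psmd4* (-0.48). The median over all genes compared was 0.01. The 156 genes higher with *Aldh1a1* had a median correlation of -0.01 and the 42 lower ones of 0.04. Among the leading genes the correlation was -0.03 for *Cct7*, -0.14 for *Lims1* and 0.04 for *Calr*.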

How the data were processed

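The authors mapped the reads to mm10 with TopHat 2.0.10 (the submitters' processing notes name TopHat2), reported 1 alignment for each read and used rpkmforgenes to count on RefSeq models. Strand is not stated. The deposited values are whole-number read counts for 15181 entries, 21 of which join several genes, in 61 young and 74 old cells, not normalized. No sample column was left unused. Total counts per cell are given in the results and limit what a count of 0 shows.

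Counts were divided by the total of their cell to give CPM, and levels are log2(CPM+1). Genes above 2 in at least 10% of the 62 cells were compared. Since cells of 1 mouse are not replicates, a gene passed by a difference of means of at least 2, with no test. The cells, gene lists and limits were chosen with earlier results of these data known. Genes named were the 15 largest and 15 smallest differences, 20 genes of interest, up to 6 compared members of each of 21 lists, and the 5 highest and 5 lowest correlations with *Aldh1a1*. Some genes that this rule names are not reported here. Further members are named to show the range of a list and were chosen after their values were seen.

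Alternatives changed the cells, the limit for *Aldh1a1*, the pseudocount, the scaling (edgeR 4.0.16 TMMwsp, DESeq2 1.42.0 poscounts), the depth (thinning to 250000 counts), the filter and the size of a difference. Centring on the median and the range of genes detected were added after seeing the data, as was the removal of B9. The steps were tested on simulated data. Positions come from RefSeq GRCm38.p6, in which 9033 of the 9069 compared symbols were matched, and coding sequences from GENCODE M21. Python 3.11.15 and R 4.3.3 were used.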

Additional observations from a re-analysis of the deposited data

Results flagged for a closer look

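*Phax*, which exports small nuclear RNAs from the nucleus, was flagged because its difference by *Aldh1a1* had opposite directions in old and young cells, past 2 in both. In the young cells 1.23% of all genes compared were lower by at least 2. A turn of this size in 1 of the 156 higher genes is thus not read as a result about *Phax*. In old HSCs it was above 2 in 23 of 46 cells with and 1 of 16 without *Aldh1a1*, with means of 3.64 ± 3.63 and 0.29 ± 0.74 log2(CPM+1) and summed counts of 7348 and 5. In young HSCs it was above 2 in 1 of 10 cells with and 23 of 42 without, with means of 0.75 and 3.27 and a difference of -2.52. In the old cells left out the difference was 1.70. With 1 mouse per age, the difference between the ages was not tested.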

How the results depend on the processing

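The counts of genes higher and lower by at least 2 (156 and 42) depended on most choices. The counts were 133 and 15 in all 74 old cells, 1445 and 1099 with a limit of 1 read of *Aldh1a1*, which left 2 cells without it, 61 and 18 with a limit of 5 for *Aldh1a1*, 596 and 154 with a pseudocount of 0.1 CPM and 1430 and 445 for the log2 ratio of mean CPM. They were 97 and 74 with TMMwsp factors, 108 and 64 with poscounts factors, 90 and 71 when the median difference was taken off, 658 and 656 in cells at or above the median of genes detected (27 with and 4 without *Aldh1a1*), 241 and 185 in those below it (19 and 12), 208 and 119 in cells without the 4 cell cycle genes, 117 and 72 within the shared range of genes detected, 180 and 49 after thinning and 10 and 7 for a difference of at least 3. Leaving out 1 cell at a time gave 150 to 205 higher and 39 to 59 lower genes. All 30 genes with the largest differences stayed past 2 with each cell left out, under the scalings, the lower pseudocount, thinning and the shared range, but 24 did in all 74 old cells, 27 in cells without the 4 cell cycle genes, 25 both in cells at or above and in cells below the median of genes detected, 18 with a limit of 1 read, 17 for the log2 ratio of mean CPM and 14 with a limit of 5. Of these 30, *Btg2* turned to -0.54 in cells at or above the median of genes detected, and *Sdc4* to 0.05 and *Parp14* to 0.19 with a limit of 1 read. Among list medians, those that moved by more than a factor of 1.5 with a limit of 1 read came to 1.19 (aldehyde dehydrogenases), 1.45 (glutathione and antioxidant), 0.98 (G2/M), 3.53 (MHC class II), 0.77 (granulocyte and macrophage), 0.78 (lymphoid), -2.84 (sex-linked), 2.04 (B cell) and 1.64 (T and NK cell). In cells at or above the median of genes detected they came to 1.30 (S phase), -1.95 (MHC class II), -2.0 (lymphoid), -0.31 (B cell) and -0.15 (T and NK cell), and in those below it to -0.60 (aldehyde dehydrogenases) and -0.20 (S phase). The MHC class II median was 0.11 with a limit of 5, the lymphoid median 0.26 without the 4 cell cycle genes, and the aldehyde damage and S-phase medians 1.45 and 1.31 for the log2 ratio of mean CPM. Of 2100 values of 140 named genes under the alternatives, 1566 moved by less than a factor of 1.5, and 183 turned sign, in 67 of the genes. Of the 33 named genes past 2, the 3 given above turned sign, while 107 named genes were not past 2 to begin with. Fewer cells were compared in the subsets, and the cause of the other moves was not tested. No paired analysis was possible because the groups are cells of 1 mouse and no test was made.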
